A study of Mus musculus with 24 samples.

Results

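Regulatory T cells (Treg) lacking Trim28 were compared with activated CD4 T cells lacking Trim28, on 8 of the 24 single-colour Agilent mouse arrays of the study. The CKO Treg (4 arrays) came from mice with a conditional knockout of Trim28 in T cells and were sorted as CD4+CD62+CD25+ cells. The CKO stimulated cells (4 arrays) were sorted from such mice as CD4+CD62+CD25- naive cells and then held for 13 h on plate-coated anti-CD3 and anti-CD28. WT Treg and WT stimulated cells (4 arrays each) gave the same comparison with Trim28 present. CKO unstimulated and WT unstimulated naive cells (4 arrays each) gave the level before stimulation. All mice were female C57BL/6 of 6 or 7 weeks. The Cre driver, and whether cells of several mice were pooled, are not given in the sources used here. The labels number 4 replicates in each group without saying that each is a separate mouse, so the p-values measure the spread between arrays, which may be technical.

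The labels contradict each other on the CKO Treg. Their treatment tag reads TCR-stimulated, whereas that of the WT Treg reads unstimulated, and the study's own outline describes stimulation of naive cells alone. If the CKO Treg were not stimulated, the groups differ both in cell type (CD25+ against CD25- at the sort) and in stimulation, and these cannot be told apart within the comparison itself. If the tag is right, the labels leave the cell type as the difference between them.

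Treg are CD4 T cells that restrain other lymphocytes. The transcription factor Foxp3 maintains their programme, and CD25, the IL-2 receptor chain that Il2ra encodes, lets them consume IL-2 that they do not make themselves. A conventional CD4 T cell stimulated through its T cell receptor (TCR) and CD28 leaves quiescence: it switches on Il2, Myc and the CD25 gene, builds ribosomes, raises its metabolism and prepares to copy its DNA. Trim28, also called KAP1, is a corepressor that zinc finger proteins with a KRAB domain bring to DNA, where it recruits enzymes that methylate histone H3 at lysine 9.

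Levels below are log2 signals scaled so that 0 is each array's 75th percentile. A fold change is the CKO Treg mean minus the CKO stimulated mean on that log2 scale. A gene was called at a limma adjusted p under 0.05 (Benjamini-Hochberg over all 17164 genes tested). The CKO Treg arrays were dimmer: their 75th percentile of signal was 31.3 to 116 units, against 201 to 372 units on the CKO stimulated arrays. The share of probes well above background was 43.2% to 57% on the CKO Treg arrays and 55.2% to 60.7% on the CKO stimulated arrays, with CKO Treg replicate 1 the lowest in both measures. Replicate arrays correlated at 0.96 to 0.982 within the CKO Treg and 0.969 to 0.993 within the CKO stimulated cells (Pearson's r across probes), and pairs of arrays across the groups at 0.876 to 0.904. A pair of slides held 1 CKO Treg and 1 CKO stimulated array each, and values within these slides are given beside the main lists. In such bulk samples, fewer cells of a type and less RNA per cell cannot be told apart.

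Trim28 itself was measured first. Its levels were 0.26, 0.2, 0.6 and 0.67 on the CKO Treg arrays and 1.08, 1.05, 1.23 and 0.53 on the CKO stimulated arrays. The WT arrays were higher, with 2.24, 1.81, 1.9 and 2.05 in WT Treg and 3.4, 3.86, 3.76 and 3.6 in WT stimulated cells, and no CKO array reached the lowest WT array of the same state. Between the CKO groups the arrays overlapped and the fold change was -0.54 ± 0.17 (SE; limma adjusted p = 0.00807). It was -0.79 on the one shared slide and 0.08 on the other, and the call was lost under 2 other scalings of the arrays. Where the probe lies relative to the deleted part of Trim28 is not known here.

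Foxp3 and Ikzf2, which define Treg, were high in the CKO Treg. Foxp3 had levels of 3.37, 3.2, 3.21 and 3.58 on the CKO Treg arrays, against -1.65, -1.18, -1.35 and -1.06 on the CKO stimulated arrays. The groups stood far apart, and the fold change was 4.65 ± 0.20 (SE; limma adjusted p = 1.54e-13), 4.55 and 4.27 within the 2 shared slides. Foxp3 in CKO Treg did not pass the test against WT Treg, whose arrays had 3.52, 3.09, 3.23 and 3.19 (difference 0.08 ± 0.20, limma adjusted p = 0.927). Ikzf2, which encodes the transcription factor Helios of thymus-derived Treg, had 3.43, 3.2, 3.28 and 2.97 in CKO Treg and -2.97, -2.97, -3.11 and -2.6 in CKO stimulated cells. It was among the 12 largest rises of the comparison, at 6.13 ± 0.20 (limma adjusted p = 6.28e-15).

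Il2ra, by contrast, was high in both groups. It had 2.81, 2.76, 2.6 and 3 in CKO Treg and 3.49, 3.21, 3.3 and 3.11 in CKO stimulated cells, while CKO unstimulated cells averaged -3.34. The CKO Treg arrays lay just below all CKO stimulated arrays, at -0.49 ± 0.16 (limma adjusted p = 0.0111), but a second probe of the gene gave 0.51 and the call was lost under 4 other ways of scaling the arrays, so no direction is drawn from it. CD25 was a sort marker of both populations, so the contrast of CKO Treg with unstimulated cells is no finding. The CKO stimulated cells were sorted as CD25- before stimulation, and their Il2ra was 6.62 above that of CKO unstimulated cells (limma adjusted p = 2.5e-17). The CD4 protein was part of both gates too, and Cd4, with a fold change of 0.56, is given as a value only. Cd3e, a chain of the TCR complex, did not pass the test (-0.34 ± 0.24, limma adjusted p = 0.219).

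**Figure D1:**
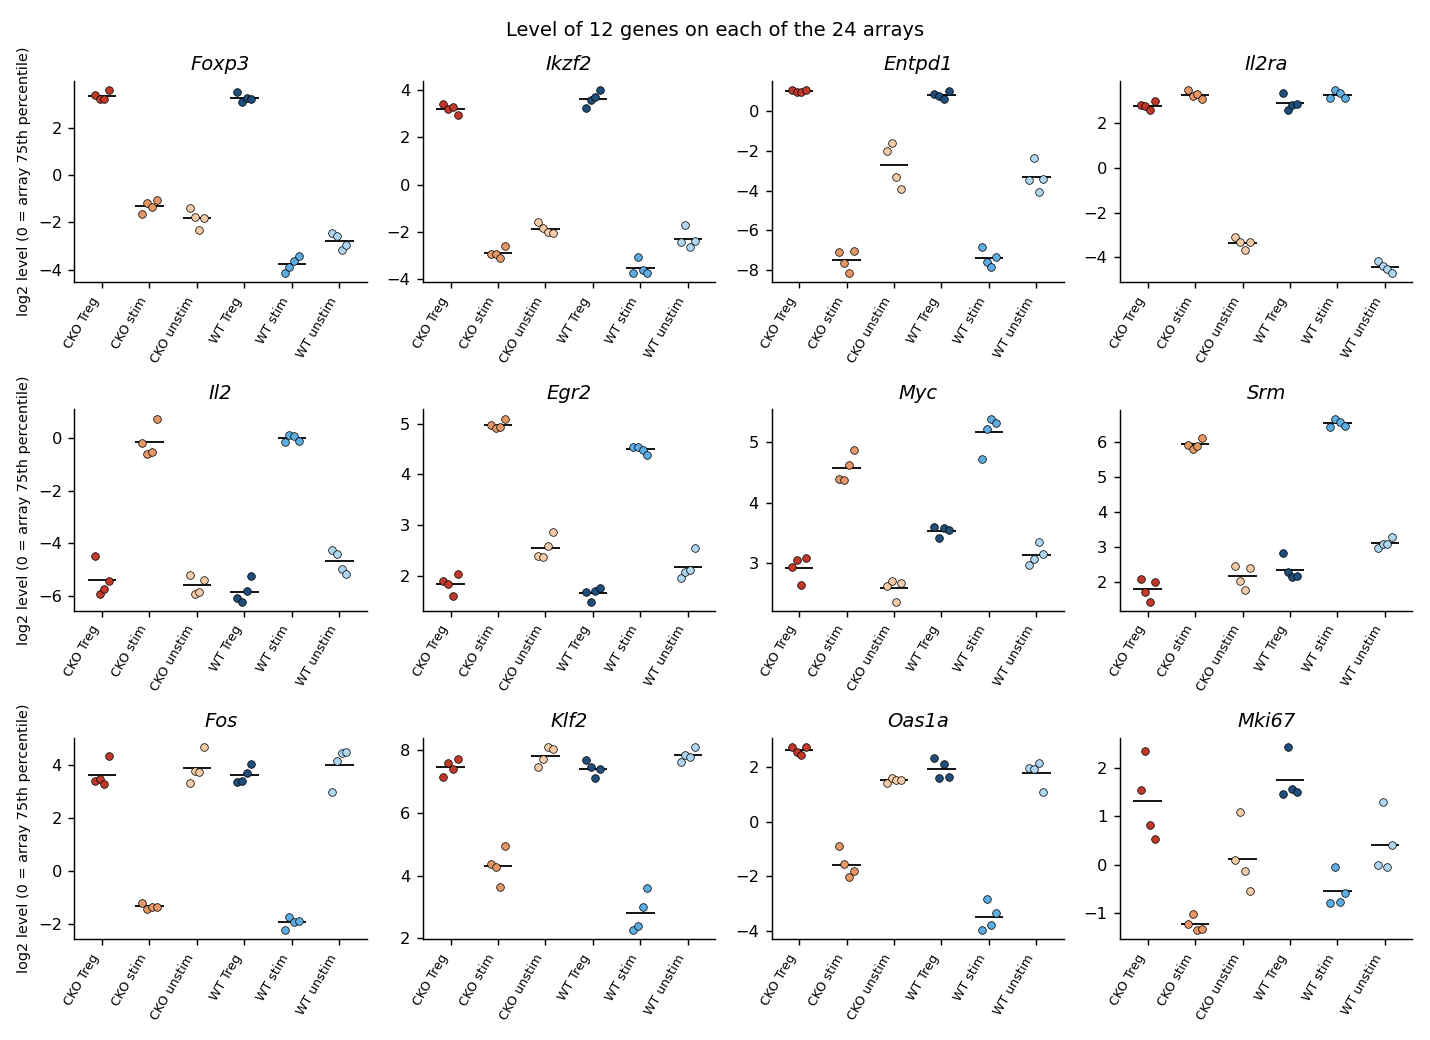
Log2 level (vertical axis, 0 is the array's 75th percentile) of 12 genes on each of the 24 arrays by group, 1 point per array and a bar at the group mean. Foxp3, Ikzf2 and Entpd1 are high in both Treg groups, Il2ra is high in Treg and in stimulated cells, Il2, Egr2 and Srm are high in stimulated cells, and the Fos and Klf2 arrays of CKO Treg overlap those of CKO unstimulated cells.

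To see what the arrays show on the treatment tag, genes that respond to TCR stimulation were taken from the WT naive arrays alone, which do not enter the CKO comparison. They were 1014 genes higher and 1592 genes lower by over 2 on the log2 scale in WT stimulated than in WT unstimulated cells. The median level of the 1014 induced genes was -1.67 to -1.30 on the CKO Treg arrays (mean -1.50 ± 0.16, SD, n = 4), 0.64 to 0.70 on the CKO stimulated arrays and -2.01 to -1.82 on the CKO unstimulated arrays. WT Treg, tagged as unstimulated, had -1.46 to -1.18. The CKO Treg arrays thus overlapped the WT Treg arrays, stood just above the CKO unstimulated arrays and lay more than 1.5 below every CKO stimulated array. The 1592 repressed genes gave the mirror image, with -1.24 to -0.80 in CKO Treg, -3.60 to -3.14 in CKO stimulated cells, -1 to -0.42 in CKO unstimulated cells and -1.28 to -0.75 in WT Treg.

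Gene by gene, 867 of the 1014 induced genes (85.5%) were lower in CKO Treg than in CKO stimulated cells, where 33% of all genes were lower. Between CKO stimulated and CKO unstimulated cells, where 59.9% of all genes were called, 962 of them were higher, against 29.6% of all genes. Of the 1592 repressed genes, 1523 were lower in that comparison, against 30.2% of all genes, and 1405 (88.3%) were higher in CKO Treg than in CKO stimulated cells. Of the induced genes, 57 were lower and 23 higher in CKO Treg than in WT Treg and 934 were not called, against 1.78% lower and 2.45% higher among all genes. Of the same genes, 251 were higher and 99 lower in CKO Treg than in CKO unstimulated cells, with a median fold change of 0.18, against 11.5% higher and 16.1% lower among all genes. These last comparisons share the CKO Treg or the CKO unstimulated arrays with one another.

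Single genes of the response were lower in CKO Treg as well. Il2, the growth factor that activated conventional T cells make, was not well above background on any CKO Treg array and had -0.17, -0.6, -0.52 and 0.75 on the CKO stimulated arrays, at least 13-fold lower in CKO Treg (limma adjusted p = 1.51e-11). Egr2, a TCR-induced transcription factor, had 1.89, 1.84, 1.6 and 2.04 in CKO Treg and 4.98, 4.92, 4.93 and 5.1 in CKO stimulated cells. WT Treg had 1.68, 1.49, 1.7 and 1.76, and CKO unstimulated cells 2.38, 2.37, 2.58 and 2.87. Egr2 was thus lower in CKO Treg than on any CKO stimulated or CKO unstimulated array, with a fold change of -3.14 ± 0.13 against CKO stimulated cells (limma adjusted p = 1.3e-13). Myc, which drives growth, had 2.93, 3.04, 2.64 and 3.08 in CKO Treg and 4.39, 4.37, 4.63 and 4.87 in CKO stimulated cells (fold change -1.64 ± 0.15, limma adjusted p = 6.51e-09). Myc was lower in CKO Treg than in WT Treg (-0.61 ± 0.15, limma adjusted p = 0.0198). On both gene sets, and for Egr2, the CKO Treg arrays thus overlapped the WT Treg arrays, tagged as unstimulated. They lay away from the cells stimulated for 13 h. Il2 carries little on the tag, since Treg do not make IL-2 themselves. Both gene sets were chosen on naive cells, and no WT Treg were tagged as stimulated. How Treg respond to a stimulus is thus not known here. The arrays cannot show whether the tag is an error or whether these Treg received a stimulus of another length or strength. Nor can they show whether stimulated Treg would change other genes.

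**Figure D2:**
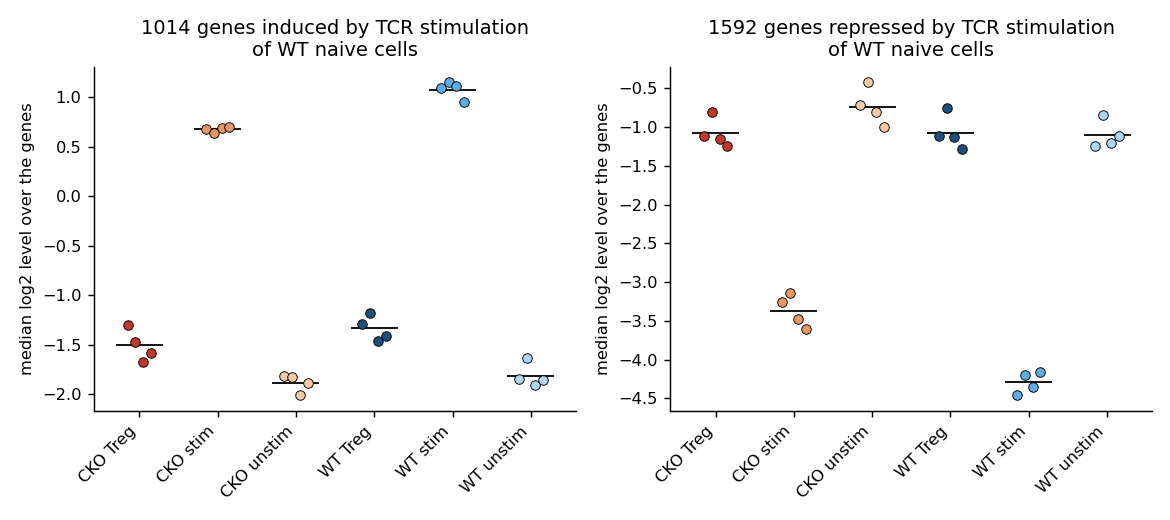
Median log2 level (vertical axes, 0 is the array's 75th percentile) of the 1014 genes induced and the 1592 genes repressed by TCR stimulation of WT naive cells, 1 point per array and a bar at the group mean; the WT stimulated and WT unstimulated arrays chose the genes. The CKO Treg arrays overlap the WT Treg arrays and lie far from the CKO stimulated arrays. On the induced genes they reach lower than WT Treg, at -1.67 to -1.30 against -1.46 to -1.18.

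Across all genes, 11563 of 17164 (67.4%) were called between CKO Treg and CKO stimulated cells, 5903 higher (34.4%) and 5660 lower (33%) in CKO Treg. At least 2-fold, 3997 genes were higher (23.3%) and 3398 lower (19.8%). The arrays of the groups did not overlap for 9792 genes (57%). The median fold change over all genes was 0.09. With the array scale taken over the brightest probes instead, this median became 0.41 or 0.50 and the higher share of the called genes 64% or 67.6%, against 51.1%. Quantile normalization gave a median of -0.04 and a higher share of 47.2%, and a common signal floor gave 44.5%. Of the genes tested, 13956 exceeded background clearly on 3 or more arrays of each group. A further 132 did so in CKO Treg and on no CKO stimulated array, and 853 in CKO stimulated cells and on no CKO Treg array. In 162 genes neither group exceeded background on any array, and 122 of these were nonetheless called higher and none lower in CKO Treg, so such calls carry no level.

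The largest rises are ranked among genes above background in both groups. Itgae, the integrin chain CD103 that binds E-cadherin, had 2.56, 2.89, 2.64 and 2.79 in CKO Treg and -4.7, -3.64, -4.06 and -4.57 in CKO stimulated cells, a fold change of 6.96 ± 0.33 (limma adjusted p = 5.41e-13). P2rx7, an ATP-gated channel, had 4.44, 4.28, 4.4 and 4.46 in CKO Treg and -2.19, -2.42, -2.87 and -2.61 in CKO stimulated cells (6.92 ± 0.22, limma adjusted p = 4.24e-15). Neither gene had any overlap between the groups. Next came Upk1b (6.13), Hbb-bt (6.07), Osgin1 (6.07), Cyp4f18 (5.92), Cyp4a10 (5.72), Apol9b (5.67), the gut-homing receptor Ccr9 (5.56), the IL-33 receptor Il1rl1 (5.41) and the CXCL12 receptor Cxcr4 (5.41). P2rx7, Ccr9 and Cxcr4 were also lower in CKO stimulated than in CKO unstimulated cells, by -4.83, -4.17 and -5.58, so most of their gap was on the side of the stimulated cells. Itgae and Il1rl1 were higher in CKO Treg than in CKO unstimulated cells by 5.17 and 5.11.

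Genes seen in CKO Treg and not well above background on any CKO stimulated array have only a lower bound on their rise. Entpd1, the ectonucleotidase CD39 that breaks down extracellular ATP, had 1.07, 0.97, 0.96 and 1.07 in CKO Treg and was at least 90.4-fold higher. Other such genes were Magi1 (at least 74.3-fold), Vcam1 (66.6), C1qc (54.7), Mogat1 (45.4), Fbln2 (36.1) and Tcrg-C (28.1). Vcam1, an adhesion molecule of stroma and macrophages, and C1qc, a complement chain of macrophages, varied widely among the CKO Treg arrays, with 1.06, 2.26, 0.39 and -1.41 for Vcam1 and 0.76, 1.73, -0.14 and -1.19 for C1qc. Both are taken up again with the markers of other cell types.

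The largest falls included genes that activated T cells express. Xcl1, the chemokine lymphotactin, had -0.32, -1.33, -1.97 and -2.85 in CKO Treg and 5.4, 4.68, 4.47 and 5.61 in CKO stimulated cells, a fold change of -6.66 ± 0.47 (limma adjusted p = 1.2e-10). Bcat1, which transaminates branched-chain amino acids, followed at -5.72 ± 0.22 and Crtam, an adhesion receptor of activated T cells, at -5.64 ± 0.19 (limma adjusted p = 3.61e-14 and 6.28e-15). The others were Hivep3 (-5.40), Psrc1 (-5.29), the folate enzyme Shmt1 (-4.98, and -1.91 on a second probe), Tg (-4.64), the RNA editing enzyme Adarb1 (-4.59), Phlda3 (-4.56), Tacc2 (-4.47), Itm2a (-4.43) and Thop1 (-4.41). Genes not well above background on any CKO Treg array were Ccl1 (at least 30.5-fold lower), the AP-1 member Fosl1 (25.9), Nme4 (25.7), Srgap3 (17.6), Dnph1 (13.5), Dixdc1 (12.7) and Hacd1 (12.2), beside Il2.

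**Figure D3:**
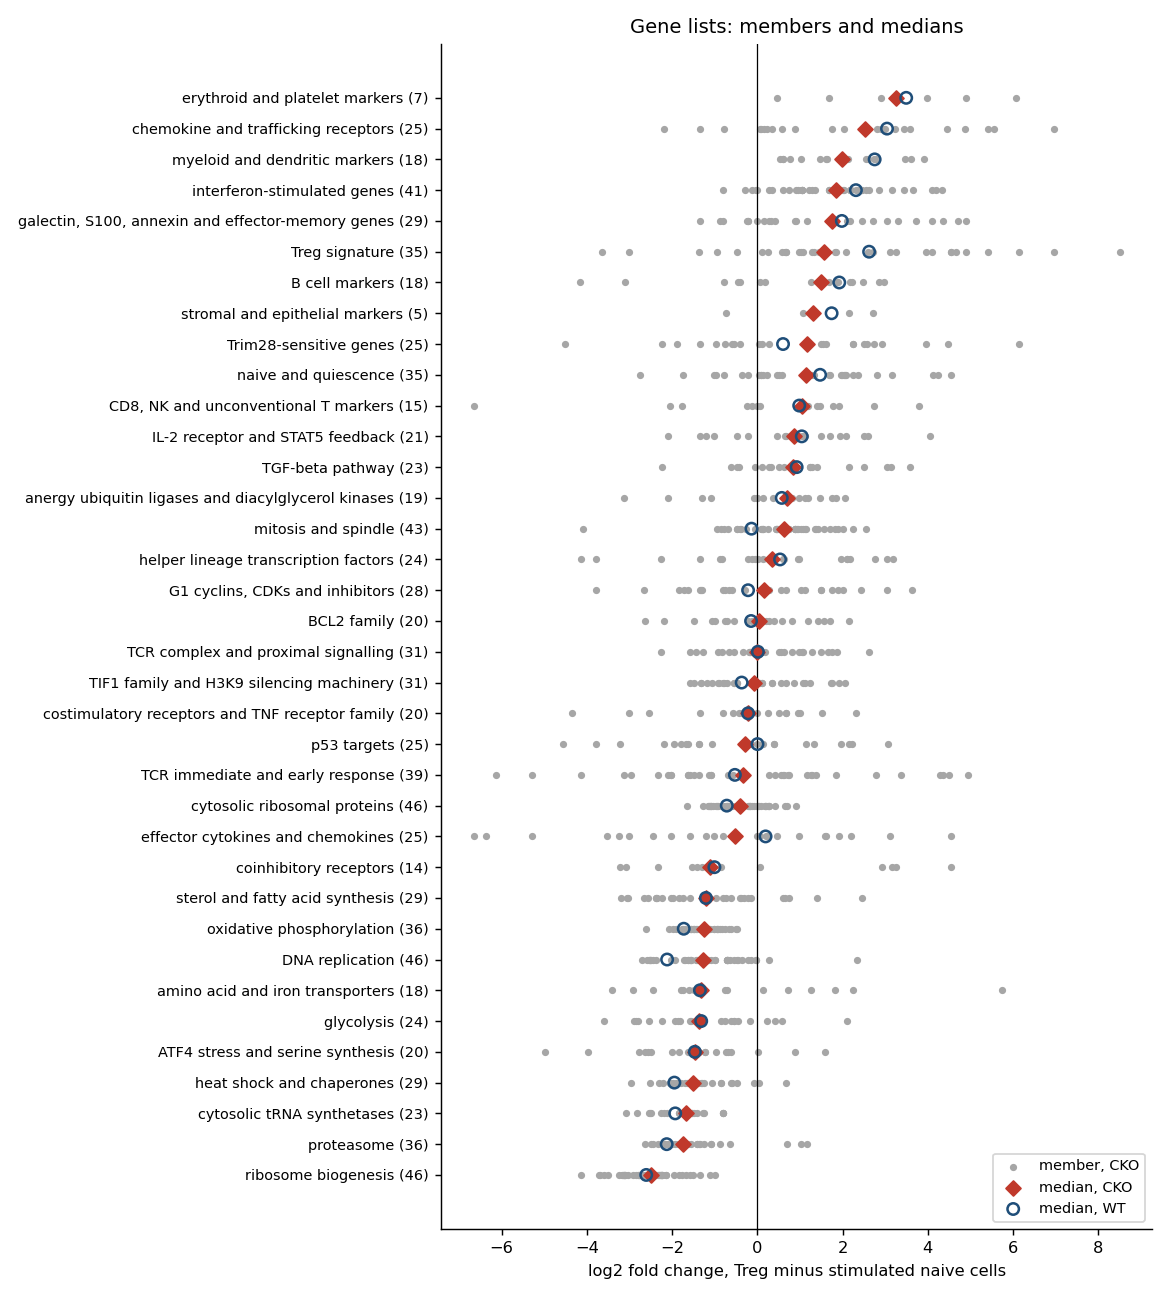
Fold change of CKO Treg against CKO stimulated cells (log2 scale) for the members of the gene lists, 1 row per list with its number of measured genes; grey points are genes, red diamonds the list medians in CKO and open circles the list medians of WT Treg against WT stimulated cells. All 46 ribosome biogenesis genes lie below 0 and no interferon-stimulated gene was called lower.

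Of 37 genes of a Treg signature, 35 were measured; 25 were higher and 5 lower, with a median of 1.56, beside 34.4% higher, 33% lower and a median of 0.09 over all genes. Within the 2 shared slides the median was 1.81 and 1.68. Next to Foxp3, Ikzf2, Itgae, Entpd1 and Il1rl1, the rises took in Gpr83, an orphan receptor of Treg (3.96 ± 0.20, limma adjusted p = 1.48e-12), and Areg, an epidermal growth factor family ligand linked to tissue repair by Treg (4.55 ± 0.37, limma adjusted p = 1.12e-09). Ikzf4 (1.28) and the folate receptor gene Izumo1r (1.32) rose less. Against WT Treg, 8 of the 35 were lower in CKO Treg and none higher (1.78% and 2.45% of all genes), among them Gpr83 (-1.42 ± 0.20, limma adjusted p = 8.83e-05) and Areg (-2.07 ± 0.37, limma adjusted p = 0.00114). Lower Gpr83 was not particular to Treg. Its mean was 0.73 in CKO and 3.18 in WT stimulated cells, and 0.68 in CKO and 3.19 in WT unstimulated cells. Tnfrsf9, the activation-induced receptor 4-1BB, fell by 3.02 on the log2 scale. Nrp1 did not pass the test (0.57).

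Coinhibitory receptors split. Of 16 listed, 14 were measured, 4 higher and 9 lower (median -1.12), against 34.4% higher and 33% lower over all genes. Ctla4, which competes for CD28 ligands and is constitutive in Treg, had 3.03, 3.07, 3.72 and 3.11 in CKO Treg and -1.22, -1.1, -1.73 and -1.17 in CKO stimulated cells (4.54 ± 0.28, limma adjusted p = 2.17e-11). Pdcd1, which encodes PD-1, went the other way, with 2.24, 1.79, 2.28 and 2.12 in CKO Treg and 5.41, 5.31, 5.07 and 5.56 in CKO stimulated cells (-3.23 ± 0.16, limma adjusted p = 1e-12). In both genes the groups did not overlap. Lag3, a ligand of MHC class II, fell by 3.09, and Cd200r1 was higher by 2.92. Of 20 measured costimulatory and TNF receptor family genes, 7 were higher and 8 lower, near the share over all genes, with a median of -0.23 that turned positive under 4 other ways of scaling the arrays. Of the 19 anergy-linked ubiquitin ligases and diacylglycerol kinases, 11 were higher and 4 lower (median 0.69, and 0.12 with a common signal floor), among the higher ones Cblb (1.84, and 0.66 on a second probe), a ligase that dampens TCR signals.

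The immediate and early genes of the TCR response did not move as a block. Of 41 listed, 39 were measured, 14 higher and 20 lower, against 34.4% and 33% of all genes. The median of -0.35 changed sign under 1 other scaling. Higher in CKO Treg were AP-1 members and an NF-kB inhibitor. Fos had 3.42, 3.47, 3.29 and 4.33 in CKO Treg and -1.19, -1.41, -1.35 and -1.33 in CKO stimulated cells (4.95 ± 0.30, limma adjusted p = 1.77e-11). CKO unstimulated cells had 3.33, 3.77, 3.75 and 4.68, which overlapped the CKO Treg values. Jun (4.28), Fosb (4.35) and Tnfaip3, the deubiquitinating enzyme A20 (4.49), were higher in the same way, and their differences from CKO unstimulated cells were small. These were -0.25 for Fos, -0.49 for Jun, lower in 4 of 4 numbered pairs, and 0.43 for Tnfaip3, higher in 4 of 4 pairs. The limma adjusted p values were 0.566, 0.123 and 0.0659 without a block and 0.434, 0.0513 and 0.0422 with the replicate number as a block. Tnfaip3 thus passed the test in the blocked fit alone, and what arrays of the same number share is not known. Cd69 and Nr4a1, which are often read as signs of recent TCR contact, were slightly higher in CKO Treg, by 0.55 ± 0.15 and 0.72 ± 0.22 (limma adjusted p = 0.00362 and 0.00616), and neither passed the test against CKO unstimulated cells in either fit. Both were lower in CKO stimulated than in CKO unstimulated cells, by -0.63 and -0.56 (limma adjusted p = 0.00133 and 0.031). Neither gene thus marked the cells stimulated for 13 h. Lower in CKO Treg were Irf4, a TCR-dosed transcription factor (-4.13 ± 0.21), Egr2 and Myc, together with Fosl1 and Il2.

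Of 32 effector cytokine and chemokine genes, 25 were measured, 6 higher and 10 lower (median -0.53), against 34.4% and 33% of all genes. The median was 0.29 and -1.19 on the shared slides and 0.21 after another background correction, so the list had no settled direction. The lower ones included Xcl1, Ccl1, Ccl4 (-3.54) and Tnfsf14, also called LIGHT (-3.24), and Areg was the largest rise. Ifng, the T helper 1 cytokine, had -0.87, -1.3, -1.26 and -1.1 in CKO Treg and 0.14, -1.01, -0.89 and 0.5 in CKO stimulated cells, and did not pass the test (-0.82 ± 0.40, limma adjusted p = 0.0782). Tgfb3, a TGF-beta ligand, had 0.2, 1, 1.93 and 0.99 in CKO Treg and -1.35, -1.35, -1.74 and -1.4 in CKO stimulated cells, a fold change of 2.49 ± 0.29 (limma adjusted p = 1.78e-07). It was lower in CKO Treg than in CKO unstimulated cells (-1.21, limma adjusted p = 0.00404) and 2.93 higher than in WT Treg. The TGF-beta pathway list had 16 higher and 4 lower of 23 measured (27 listed, median 0.84), among them the decoy receptor Bambi (3.04), the receptor inhibitor Ldlrad4 (3.14) and Itgb8, an integrin chain that releases active TGF-beta (3.58). Against CKO unstimulated cells the median of this list was -0.03 in CKO Treg.

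Most lists of growth and protein synthesis genes were lower in CKO Treg, and the ribosomal proteins themselves had no settled direction. Beside the counts below, 34.4% of all genes were higher and 33% lower. All 46 ribosome biogenesis genes fell, with a median of -2.50 (-2.28 and -2.88 on the shared slides). Srm, which makes the polyamine spermidine and is a Myc target, had 2.07, 1.71, 1.43 and 2 in CKO Treg and 5.92, 5.82, 5.9 and 6.12 in CKO stimulated cells (-4.14 ± 0.17, limma adjusted p = 1.13e-13). Gar1 (-3.73) and Nhp2 (-3.69), which belong to the small nucleolar particles that modify ribosomal RNA, and Nop16 (-3.60) were among the largest falls. All 23 cytosolic tRNA synthetase genes fell (median -1.68), among them Mars1 (-2.82). The 46 cytosolic ribosomal protein genes moved less, 2 higher and 22 lower with a median of -0.41, which was 0.23 on one shared slide, -1.32 on the other and 0.01 with the arrays scaled by their brightest probes. Rpl3 had -1.27.

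Metabolic genes followed. Of 36 oxidative phosphorylation genes 35 were lower and none higher (median -1.25), among them Atp5g1, a subunit of ATP synthase (-2.61). Of 24 measured glycolysis genes 19 were lower and 3 higher (25 listed, median -1.38), with Hk2 (-3.60) and Tpi1 (-2.89) in front. Of 29 measured sterol and fatty acid synthesis genes 21 were lower and 4 higher (30 listed, median -1.21), including the isoprenoid enzyme Idi1 (-3.2). The proteasome list had 33 lower and 3 higher of 36 measured (37 listed, median -1.74), with Psmd1 at -2.65. Serine and ATF4 stress genes had 16 lower and 1 higher of 20 (median -1.46), among them asparagine synthetase Asns (-3.98) and Shmt2 (-2.78). Transporters of amino acids and iron had 11 lower and 5 higher of 18 measured (19 listed, median -1.32). Slc7a5, which imports large neutral amino acids, was at -2.93 and Slc1a5 at -2.44, and Slc1a4 went the other way at 2.25. Chaperones had 25 lower and none higher of 29 measured (30 listed, median -1.52), with the mitochondrial chaperonin Hspd1 at -2.97. Against CKO unstimulated cells these list medians lay between -0.36 and -0.04, so that CKO Treg stood near resting cells in all of them.

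**Figure D4:**
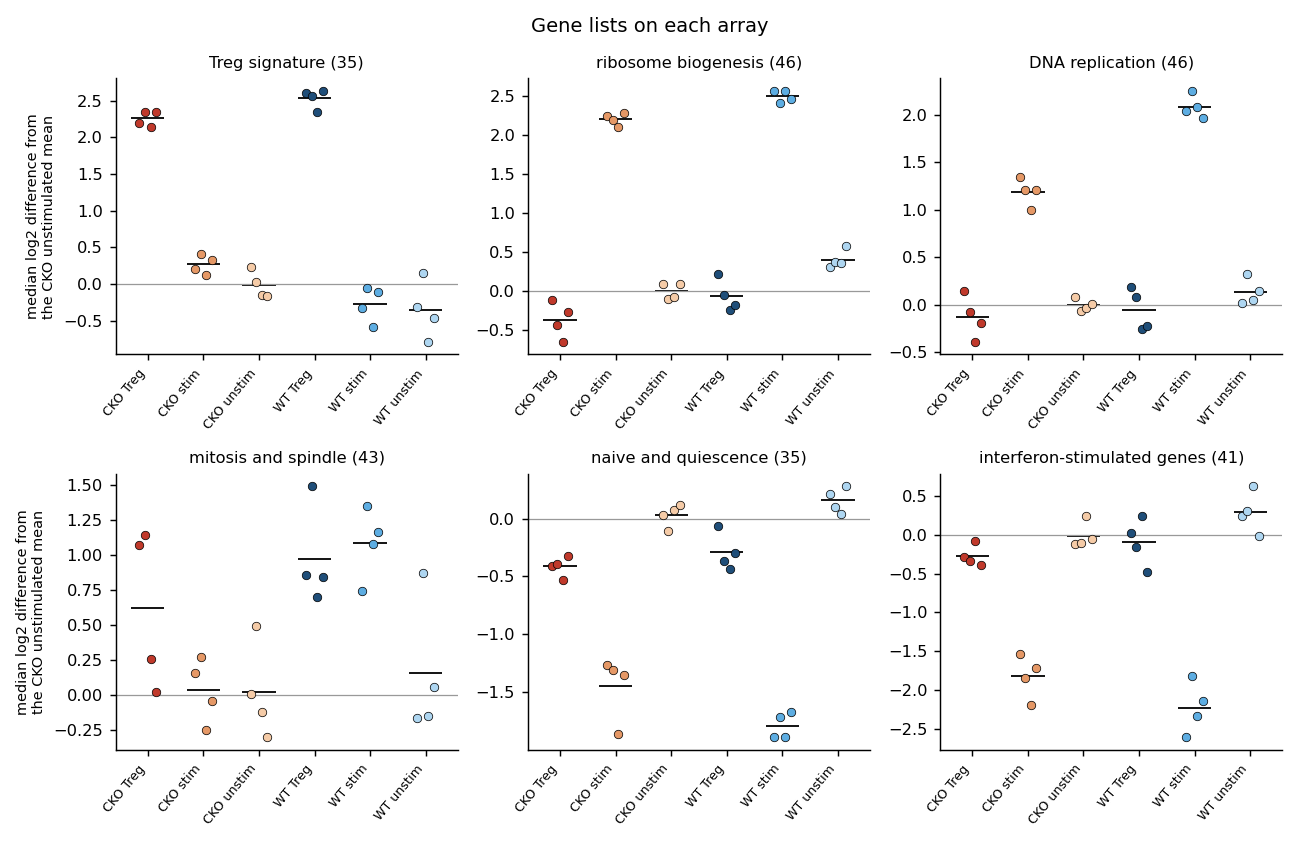
Median over list members of the log2 level relative to the CKO unstimulated mean (vertical axes), 1 point per array by group. The Treg signature is high on all Treg arrays, ribosome biogenesis and DNA replication are high on stimulated arrays, mitosis genes range from 0.02 to 1.14 on the CKO Treg arrays, and naive and interferon-stimulated genes lie between -2.19 and -1.27 on the CKO stimulated arrays.

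The genes of the cell cycle fell into separate groups. Of 46 DNA replication genes, 38 were lower, 1 higher and 7 not called in CKO Treg (median -1.28, -0.91 and -1.46 on the shared slides). Mcm2, a subunit of the replicative helicase, had 1.16, 0.96, 0.34 and 0.79 in CKO Treg and 3.41, 3.42, 3.33 and 3.46 in CKO stimulated cells (-2.59 ± 0.16, limma adjusted p = 1.25e-11). Other helicase subunits, Mcm3 (-2.51), Mcm5 (-2.45) and Mcm6 (-1.93), and the polymerase subunit Pole2 (-2.54) fell as well, and Tk1, thymidine kinase, was the member that rose (2.33). Mcm5, Mcm6 and Tk1 were picked after their values were seen. Mitosis and spindle genes did not follow. Of 46 listed, 43 were measured, 17 higher, 6 lower and 20 not called (median 0.63, 0.66 and 0.37 on the shared slides, and 0.18 with a common signal floor). Over all genes 34.4% were higher and 33% lower, so the higher members were near that share. In WT Treg against WT stimulated cells this list had 10 higher and 12 lower (median -0.14). Mki67, a marker of cycling cells, had 1.54, 2.35, 0.82 and 0.54 in CKO Treg and -1.22, -1.01, -1.35 and -1.32 in CKO stimulated cells. The groups did not overlap (2.54 ± 0.38, limma adjusted p = 5.29e-06), with the CKO Treg arrays spread over nearly 2 log2 units. Nusap1 (2.00), Ccnb2, a mitotic cyclin (1.90), and Prc1 (1.81) rose too.

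Genes of replication are commonly regulated by E2F factors and genes of mitosis through an element called the cell cycle homology region (CHR). Promoter windows of members that moved in opposite directions are shown for that reason, from RefSeq on GRCm38.p6, each in the direction of its gene. Capitals mark the E2F letters TTTCCCGC or TTTGGCGC in Mcm5 and Mcm6 and the CHR letters TTTGAA in Mki67 and Ccnb2, searched on both strands.
Mcm5, chr8:75109330-75109389, plus strand: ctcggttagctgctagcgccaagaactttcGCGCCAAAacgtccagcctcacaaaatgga
Mcm6, chr1:128359723-128359782, minus strand: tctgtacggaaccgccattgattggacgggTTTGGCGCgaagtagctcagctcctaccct
Mki67, chr7:135716448-135716507, minus strand: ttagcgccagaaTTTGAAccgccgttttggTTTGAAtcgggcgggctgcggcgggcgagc
Ccnb2, chr9:70421692-70421751, minus strand: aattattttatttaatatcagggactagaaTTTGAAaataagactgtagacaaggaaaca
In the 250 bases before the start site, the E2F letters stood in 13% of 46 promoters of the replication list, which covered 38 of its 46 genes, and in 1.3% of all 32851 mouse promoters. The CHR letters stood in 40% of 35 promoters of the mitosis list, covering 33 of its 43 genes, and in 16% of all. The E-box CACGTG, which Myc can bind, stood in 2.04% of 49 promoters of the ribosome biogenesis list, covering 40 of its 46 genes, and in 6.02% of all. Such matches describe letters and are no evidence of binding.

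Regulators of the first gap phase had 11 higher and 12 lower of 28 measured (31 listed), near the 34.4% and 33% of all genes, and no settled median. Cdk4, the kinase that D cyclins activate, was lower (-2.67), and so was the inhibitor Cdkn1a, p21, with -0.73, -1.08, -0.61 and -0.74 in CKO Treg and 2.98, 2.87, 2.89 and 3.29 in CKO stimulated cells (-3.80 ± 0.28, limma adjusted p = 2.24e-10). The inhibitor Cdkn2d (3.03) and E2f2 (3.62) were higher. Of 25 measured p53 targets (26 listed), 6 were higher and 11 lower; beside Cdkn1a and Phlda3 on the lower side, Gadd45a was higher (3.07). Of 20 measured BCL2 family genes (24 listed), 7 were higher and 7 lower, again near the share over all genes. Bcl2 (1.70), which protects resting T cells, and the BH3-only gene Pmaip1 (2.14) were higher, and Bcl2l1, encoding Bcl-xL (-2.65, and -0.96 and -0.93 on other detected probes), and Bax (-2.20) lower.

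The list of naive and quiescence genes had 22 members higher and 6 lower of 35 in CKO Treg (median 1.15, 1.15 and 0.81 on the shared slides). Among all genes 34.4% were higher and 33% lower, here and for the trafficking receptors below. Klf2, which keeps T cells quiescent and circulating, had 7.14, 7.58, 7.38 and 7.69 in CKO Treg and 4.37, 4.26, 3.62 and 4.95 in CKO stimulated cells (3.15 ± 0.27, limma adjusted p = 1.87e-09). A second Klf2 probe, above background on all 8 arrays, gave only 0.43, so the size of this rise is uncertain. Klf4 (4.53), the glucocorticoid-induced Tsc22d3 (4.24) and the IL-7 receptor Il7r (4.11) were higher as well. Against CKO unstimulated cells this list had a median of -0.37 in CKO Treg and of -1.46 in CKO stimulated cells. Of 25 measured chemokine and trafficking receptors (27 listed), 18 were higher and 3 lower (median 2.52, which was 0.57 with all arrays held to a common signal floor).

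In the IL-2 receptor and STAT5 group, 13 of 21 measured genes were higher and 5 lower (22 listed, median 0.85). The feedback inhibitors Socs3 (4.06) and Socs2 (2.59) and the receptor beta chain Il2rb (2.51) were higher, and the kinase Pim2 lower (-2.11). Over all genes 34.4% were higher and 33% lower, which holds for the next 2 lists as well. Among 24 helper lineage transcription factors, 12 were higher and 5 lower (median 0.34). Gata3 (2.76), which specifies T helper 2 cells, and the aryl hydrocarbon receptor Ahr (3.19) were higher, and Irf4 was lower. The TCR complex and its proximal signalling genes had 13 higher and 8 lower of 31, with a median of 0 and thus no direction as a list. Among them were the kinase Zap70 (-2.26) and the adaptor Pag1 (2.62, and 1.31 and 1.32 on other probes). Pou2af1, a coactivator best known in B cells, was higher in CKO stimulated cells (-4.17).

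Interferon-stimulated genes were higher in CKO Treg in 34 of 41 measured members and lower in none (43 listed, median 1.85, and 1.92 on both shared slides). The shares over all genes were 34.4% higher and 33% lower. Oas1a, an antiviral oligoadenylate synthetase, had 2.73, 2.55, 2.45 and 2.72 in CKO Treg and -0.91, -1.57, -2.04 and -1.82 in CKO stimulated cells (4.20 ± 0.26, limma adjusted p = 2.14e-11). Samd9l (4.32), Mx2 (3.65) and the RNA sensor Ddx58 (3.43) were in the same group, and Gbp3 (2.86) and Isg15 (2.19), picked after their values were seen for their promoters, rose too. CKO Treg and CKO unstimulated cells were close on this list, with a median difference of -0.29, and the median of CKO stimulated against CKO unstimulated cells was -1.70.

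Interferon-activated factors read the element called ISRE, and promoter windows of Oas1a, Gbp3 and Isg15 are shown because they hold its letters, GAAA, any 2 bases and GAAA. Capitals mark all matches, which overlap one another, on either strand; in Gbp3 they are read from the opposite strand. The windows are from RefSeq on GRCm38.p6, in the direction of each gene.
Oas1a, chr5:120907526-120907585, minus strand: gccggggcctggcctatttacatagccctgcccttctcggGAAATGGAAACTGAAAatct
Gbp3, chr3:142559975-142560034, plus strand: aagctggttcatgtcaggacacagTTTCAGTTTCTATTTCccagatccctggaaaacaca
Isg15, chr4:156200855-156200914, minus strand: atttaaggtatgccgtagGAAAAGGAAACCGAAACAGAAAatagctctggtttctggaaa
The letters stood in 42.9% of 35 promoters of this list, covering 28 of its 41 genes, and in 2.98% of all promoters, within the 250 bases before the start site.

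Genes of effector-memory cells, galectins, S100 proteins and annexins had 17 higher and 2 lower of 29 measured (30 listed, median 1.74). For this list and the marker lists below, 34.4% of all genes were higher and 33% lower. S100a4 (4.90), Ahnak (4.70) and the intermediate filament gene Vim (4.35) led the list. Against CKO unstimulated cells this list had a median of 0 in CKO Treg, with 2 members higher and 6 lower, and of -1.97 in CKO stimulated cells. Markers of several other cell types were higher beside it. Of 18 measured B cell markers (19 listed) 11 were higher and 2 lower (median 1.5, and 0.14 with the common floor), and of 18 measured myeloid markers (22 listed) 12 were higher and none lower (median 1.99, and 0.82 with the floor). Lyz2, lysozyme of macrophages, had 4.5, 4.39, 2.69 and 3.1 in CKO Treg and 0.98, 3.5, 0.23 and -0.43 in CKO stimulated cells, with overlapping arrays (2.60 ± 0.74, limma adjusted p = 0.00428). Adgre1, which encodes F4/80, rose by 3.90 and Tyrobp by 2.74. Hbb-bt, a beta globin, had 0.09, 5.64, 3.67 and 0.04 in CKO Treg and -4.96, -0.94, -3.2 and -5.75 in CKO stimulated cells, and 6 of 7 measured erythroid markers (10 listed) were higher (median 3.26, and 0.86 with the floor). Of 5 measured stromal markers (12 listed), 4 were higher and 1 lower (median 1.31, and 0.02 with the floor), and of 15 measured CD8 and natural killer markers (18 listed), 7 were higher and 3 lower (median 1.05, and 0 with the floor).

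As a sum over each list on the linear scale, where 1 is the array's 75th percentile, erythroid markers came to 1.82 to 70.6 in CKO Treg and 0.336 to 1.05 in CKO stimulated cells. B cell markers came to 63.4 to 97.5 in CKO Treg and 34.8 to 55.8 in CKO stimulated cells. Well above background were 12 to 16 of the 18 B cell markers on the CKO Treg arrays and 12 to 17 on the CKO stimulated arrays. Myeloid markers overlapped, with 19.8 to 150 in CKO Treg and 6.86 to 142 in CKO stimulated cells, and 14 to 17 of the 18 markers above background in CKO Treg and 11 to 17 in CKO stimulated cells. The sum of CD8 and natural killer markers was lower in CKO Treg, 9.2 to 18.8, than in CKO stimulated cells, 32.7 to 63. The chemokine gene Xcl1 (fold change -6.66) is a member and makes up most of that sum in CKO stimulated cells. Of the 15 members, 7 were called higher and 3 lower, so the sum is no measure of such cells. Stromal markers came to 4.67 to 6.47 in CKO Treg and 1.28 to 2.14 in CKO stimulated cells. The erythroid and myeloid medians of CKO Treg against CKO unstimulated cells were 0.22 and -0.92, so the unstimulated naive cells carried them too. The B cell median in that comparison was -2.55, with 16 of the 18 markers lower and none higher. The B cell sum was 11.2 to 34.9 in WT Treg, though only 1 B cell marker was called higher in CKO Treg than in WT Treg. That was Ly6d, 4.40 higher in CKO Treg (limma adjusted p = 5.22e-05). Ly6d was also 3.76 higher in CKO stimulated than in WT stimulated cells. Its part in the B cell sums was not tested. The part of such cells, and of the dimmer CKO Treg arrays, in the fold changes of Vcam1, C1qc, Hbb-bt and the S100 and galectin list was not tested.

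The same comparison was made with Trim28 present. Differences between the genotypes cannot be told apart from the treatment tag, which differs between CKO Treg and WT Treg. The part of the dimmer CKO Treg arrays in them was not tested. In WT Treg against WT stimulated cells 12436 genes were called (72.5%). Of the calls, 10086 were shared and 10037 had the same direction, which is 86.8% of the CKO calls and 80.7% of the WT calls. The difference of the comparisons, tested as an interaction, was called for 767 genes (4.47%), 345 positive (2.01%) and 422 negative (2.46%). The change was larger in CKO for 168 of these and larger in WT for 599. CKO Treg and WT Treg themselves differed in 725 genes (4.22%), 420 higher and 305 lower in CKO Treg. CKO Treg and CKO unstimulated cells differed in 4748 (27.7%), 1978 higher and 2770 lower.

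Foxp3 was among these differences. Its gap between Treg and stimulated cells was 4.65 in CKO and 7.01 in WT (difference -2.37 ± 0.28, limma adjusted p = 5.04e-05). The Treg arrays of both genotypes overlapped, whereas Foxp3 stood at -1.65 to -1.06 in CKO stimulated cells and -4.14 to -3.41 in WT stimulated cells, 2.45 apart. Ecm1, an extracellular matrix protein of activated Treg, was different on the Treg side, with 4.11, 4.51, 4.03 and 4.75 in CKO Treg and 6.01, 6.38, 6.29 and 6.27 in WT Treg. Its gap was 1.07 in CKO and the difference -2.62. Plagl1, a zinc finger factor that is imprinted, had -2.1, -2, -1.23 and -1.68 in CKO Treg and 2.6, 2.32, 2.2 and 2.3 in WT Treg, with a difference of -2.75. A second Plagl1 probe pointed the other way in the CKO comparison, where neither probe gave a call. The other large negative differences were Xdh (-3.23), Pex11c (-2.64), Nrp2 (-2.60), Fam20a (-2.39) and Nrp1, a semaphorin receptor of thymus-derived Treg (-2.35).

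Among the positive differences, Ak7, an adenylate kinase, had 1.83, 1.78, 1.16 and 1.41 in CKO Treg and 1.96, 2.02, 1.57 and 2.28 in CKO stimulated cells, against -2.5, -2.5, -2.79 and -2.33 in WT Treg and 1.5, 1.75, 1.86 and 1.77 in WT stimulated cells. Of these 4 groups it was low in WT Treg, and its difference, 3.84, was the largest among genes above background on 3 or more arrays in each of them. Slc1a4, with a fold change of 2.25 in CKO and -4.08 in WT, and Upk1b had called differences of 6.32 and 4.46, but at least 1 of their groups was not above background. Rad51b, a recombination gene, had 1.69, 1.24, 1.41 and 1.77 in CKO Treg and -2.15, -2.56, -2.62 and -2.96 in CKO stimulated cells, against -1.48, -1.45, -1.41 and -2.08 in WT Treg and -2.59, -3.59, -3.49 and -3.55 in WT stimulated cells. It rose by 4.10 ± 0.29 in the CKO comparison (limma adjusted p = 1.35e-10), with a difference of 2.40. A second Rad51b probe gave only 0.24, but it was well above background on no CKO Treg array and on 2 CKO stimulated arrays. Other positive differences were Ube2e2 (3.66), Cbr3 (3.34), Eipr1 (2.80), Fntb (2.53), Ccl3 (2.43) and Gstt3 (2.40).

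A list of TIF1 family and H3K9 silencing genes had 9 members higher and 15 lower of 31 measured (34 listed), against 34.4% higher and 33% lower among all genes. Trim24, a relative of Trim28, had 5.73, 5.61, 5.82 and 5.86 in CKO Treg and 3.89, 3.88, 3.46 and 3.54 in CKO stimulated cells. It rose by 2.06 ± 0.14 in CKO (limma adjusted p = 4.92e-11) and did not pass the test in WT, at -0.04 ± 0.14, with a difference of 2.10. Morc3, a nuclear ATPase, had 3.32, 3.15, 3.07 and 3.27 in CKO Treg and 1.4, 0.94, 1.38 and 1.39 in CKO stimulated cells (1.92 ± 0.13, limma adjusted p = 7.17e-11; difference 1.83). Among 25 genes that earlier results of these arrays had marked as sensitive to Trim28, 12 were higher and 6 lower in CKO Treg, a list chosen on these samples and thus no independent evidence. Its widest gap, in Upk1b, an epithelial membrane protein, was 3.09, 3.41, 3.41 and 3.28 in CKO Treg and -2.34, -2.97, -3.11 and -2.89 in CKO stimulated cells, and no WT Treg or WT stimulated array had the gene above background. Wfdc2 (4.48) and coagulation factor F12 (2.93) rose as well. In 17 of the 46 DNA replication genes the difference between genotypes was called and positive, and in none negative, beside 2.01% positive and 2.46% negative over all genes; the number of such calls moved widely with the settings. The median gap over the list was -1.28 in CKO and -2.12 in WT.

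**Figure D5:**
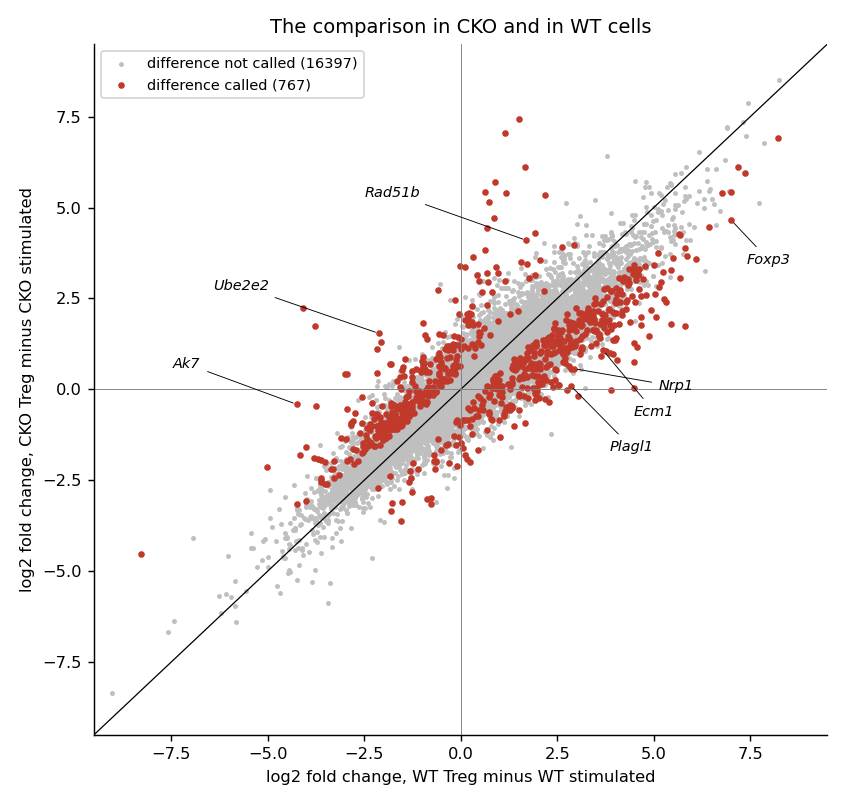
Fold change of CKO Treg against CKO stimulated cells (vertical axis) and of WT Treg against WT stimulated cells (horizontal axis), both on the log2 scale, 1 point per gene, with the 767 genes of a called difference in red and the line of equal change in black. Rad51b lies above the line, at 4.10 in CKO, and Foxp3 below it, at 4.65 in CKO and 7.01 in WT.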

How the data were processed

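RNA of 24 samples was hybridised to single-colour Agilent arrays, 4 arrays in each of 6 groups taken from the labels. Per the file headers, the deposited scanner values are background-subtracted and detrended intensity values from Agilent Feature Extraction, listed in the submitters' processing notes as version 9.5, without normalization between arrays. The authors' own normalized intensity values, with the same median in every column, were used as an alternative; 41170 of their probes matched, with a rank correlation of 1 to the scanner values.

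Control spots and outlier spots (49 to 90 per array) were left out, spots of a probe averaged, and log2 intensity was set to each array's 75th percentile. Of 41174 probes, 25198 were well above background on at least 3 of 4 arrays of a group and kept; the brightest kept probe represented each of 17164 genes. RefSeq accessions named 22951 of 25510 probes. limma 3.58.1 in R 4.3.3 fitted group means over all 24 arrays with 18 residual degrees of freedom (lmFit and eBayes, Benjamini-Hochberg). The number of arrays limits the precision. The fit was tested on simulated data. Figures used matplotlib 3.10.9.

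The genes named are those of prior interest, the 12 largest rises and falls, up to 8 per direction seen in 1 group only, the 8 largest differences between genotypes in each direction, and up to 4 members per list; Il17a had no kept probe, and some named genes are not reported here. The members and the 36 lists were chosen with earlier results of these data known. A bound uses, per array, the higher of the dim probe's signal and the lowest signal well above background. Of the listed genes, 16 matched no probe and 42 had no kept probe.

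Replicate numbers were checked for pairing by correlating deviations from the group means across genes. CKO Treg with CKO unstimulated arrays gave 0.47, 0.44, 0.36 and 0.48, each higher than with arrays of another number. However, replicate 1 was from 7 weeks in CKO Treg and 6 weeks in CKO unstimulated cells, and replicates 2 and 4 shared a slide. What these numbers share is thus not known. CKO Treg with CKO stimulated arrays gave 0.11, 0.30, 0.42 and -0.08, and only replicates 2 and 3 matched best by number. Alternatives covered normalization, background correction, scaling, filters, floors, probe averaging, arrays fitted, array weights, slide, replicate number and single arrays left out.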

Additional observations from a re-analysis of the deposited data

Results flagged for a closer look

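In 14 of 292 groups of 4 arrays checked, 1 array stood apart from the other three; chance alone gives about 1 in 20. On the CKO stimulated arrays these were Tgfb3 on replicate 3 (-1.74), Nr4a1 on replicate 4 (7.37), Cd3e on replicate 4 (1.02), Cxcr4 on replicate 3 (-2.55), Phlda3 on replicate 4 (5.23), Ube2e2 on replicate 4 (1.64), Cbr3 on replicate 4 (0.65), Lag3 on replicate 3 (1.69), Morc3 on replicate 2 (0.94) and Hba-a1 on replicate 2 (-2.03). On the CKO Treg arrays they were Il1rl1 on replicate 3 (0.38), Cxcr4 on replicate 4 (3.41), Tnfsf14 on replicate 1 (-1.21) and Ctla4 on replicate 3 (3.72).

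For 34 genes named here the gap between Treg and stimulated cells differed between CKO and WT by the interaction test, with both genotypes measured above background. Positive differences, CKO minus WT on the log2 scale, were found for Ak7 (3.84), Ube2e2 (3.66), Cbr3 (3.34), Eipr1 (2.80), Fntb (2.53), Ccl3 (2.43), Rad51b (2.40), Gstt3 (2.40), Trim24 (2.10), Morc3 (1.83), Trim28 itself (1.12), Gpr83 (1.03) and Mcm5 (0.83).

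Negative differences were found for Xdh (-3.23), Plagl1 (-2.75), Pex11c (-2.64), Ecm1 (-2.62), Nrp2 (-2.60), Fam20a (-2.39), Foxp3 (-2.37), Nrp1 (-2.35), Cblb (-1.51), Ddx58 (-1.56), Tsc22d3 (-1.45), Klf2 (-1.43), Jun (-1.38), Cxcr4 (-1.36), Nr4a1 (-1.31), P2rx7 (-1.31), Tnfsf8 (-1.21), Slc1a5 (-1.15), Ikzf2 (-1.06), Gadd45a (-1.02) and Gata3 (-0.95). Under the other settings, 8 of the 34 kept the call throughout: Ak7, Ube2e2, Fntb, Plagl1, Ecm1, Nrp1, Trim24 and Morc3. Foxp3 lost it under 1 of 13 settings, Trim28, Jun and Mcm5 under 3 and P2rx7 under 4. The call of 26 of the 34 survived the loss of any single array, and that of Gpr83, Ikzf2, Cxcr4, Cbr3, Ccl3, Xdh, Klf2 and Cblb did not. For Foxp3 the difference ranged from -2.57 to -0.91 over the alternatives.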

How the results depend on the processing

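With 11563 genes called between CKO Treg and CKO stimulated cells, the count moved beyond 1.5 times only with no filter on dim probes (20696 of 28786 tested) and at 2-fold or more (7395, chosen after seeing the data). It was 11355 with slide as a block. Leaving out each array in turn gave 10814 to 11325 here, 11837 to 12424 for WT Treg against WT stimulated cells, 480 to 1263 for the difference between genotypes, 577 to 713 for CKO Treg against WT Treg and 3335 to 5041 for CKO Treg against CKO unstimulated cells. The difference between genotypes, 767 genes, was the least stable count: 57 with normexp background correction, 387 with no filter, 506 with only the arrays compared, 2229 with array weights and 1377 with the replicate block. Without WT stimulated replicate 2 it was 507, without WT Treg replicate 3 it was 501, and without CKO stimulated replicates 2 and 4, each on its own, 480 and 1263. CKO Treg against WT Treg (725) became 81 with normexp and 368 with only the arrays compared, and CKO Treg against CKO unstimulated cells (4748) became 9235 with normexp and 12093 with no filter. The cause of these shifts was not tested. The replicate block gave 12027 calls in the main comparison and 5509 against CKO unstimulated cells, though what the numbers share is not known. This block moved no count beyond 1.5 times except that of the genotype difference.

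The gap of CKO Treg from CKO stimulated cells in the median level of TCR-induced genes, -2.18, was -1.56 with a threshold of 1 on the log2 scale and -2.52 after quantile normalization; that of the repressed genes, 2.29, was 1.68 with a threshold of 1. Among single genes only Nrp2 turned round, with a fold change of 0.22 under normexp, against -0.93 in the scaling used throughout. Of 1976 recomputed fold changes of named genes 1939 kept direction and call, but 65 of 437 genotype differences lost it, 67 of 504 list counts moved by over 1.5 times and 155 of 252 list medians by over 0.25. Scaling on the brightest probes moved the higher share of the genotype differences from 45% to 24.6% or 20.7%. List medians of costimulatory, first gap phase, BCL2, p53 target, H3K9 silencing, ribosomal protein, effector cytokine and early TCR genes changed sign under some setting, and that of CD8 and natural killer markers, 1.05, fell to -0.01 with probes above background on all arrays and to 0 with a common floor. The dim CKO Treg arrays limit what can be seen there: 853 genes were above background only in CKO stimulated cells.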
